A study of Mus musculus with 6 samples.

Results

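The 9 genes described here encode transcription factors that hold hepatocyte identity: Hnf4a, Cebpa, Cebpb, Foxa1, Foxa2, Foxa3, Onecut1, Nr5a2 and Prox1. They were chosen by name, each matched 1 row of the table, and they are 9 of its 55450 genes. All 9 passed the filter on low counts, which left 14539 genes for testing. Poly(A) RNA was sequenced from the left liver lobe of 6 mice of strain C57BL/J, as the labels spell it, at 10 weeks of age, with 1 library per mouse. The 3 mice labelled LKB1 knock out (KO) carried loxP-flanked (fl/fl) alleles of LKB1, whose gene symbol is Stk11, and the 3 mice of normal genotype are called wild type (WT). Both groups received AAV8 Cre, an adeno-associated virus that carries the Cre recombinase, at 6 weeks of age, and the livers were taken 4 weeks later, so the WT mice also carried the virus and Cre. The promoter that drives Cre is not given in the sources used here. The values are from whole tissue, in which fewer cells of a type and less RNA per cell cannot be told apart.

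Hepatocytes keep their gene expression through a small network of liver-enriched transcription factors that bind each other's regulatory regions as well as the genes for plasma proteins, bile acid enzymes and nutrient metabolism. HNF4A, a nuclear receptor, is bound at a large share of the genes active in liver. The FOXA proteins open chromatin for the others, the C/EBP proteins are leucine zipper factors that tie the network to hormones and inflammation, ONECUT1 (HNF6) and NR5A2 (LRH-1) act on glucose, bile acid and cholesterol genes, and PROX1 is a homeobox factor that acts as a corepressor of HNF4A and NR5A2.

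Total counts ran from 47659122 to 56147667 per library. Stk11 was at 22.1, 14.4 and 11.4 CPM (counts scaled to a common library size by the TMM method) in KO 1 to 3 and at 66.1, 64.2 and 69.7 CPM in WT 1 to 3, a log2 fold change of -2.06 ± 0.247 (SE; edgeR adjusted p = 0.0167), so the targeted gene was low in the libraries labelled KO. A gene total does not separate deleted from remaining exons. KO 1 and WT 1 held 42472 and 29243 counts of Xist and at most 6 counts of 4 Y-linked genes, whereas the other 4 libraries, called Y-positive below, held at least 6146 Y-linked counts and at most 16 of Xist. The labels give no sex. Leaving out KO 1 raised the number of genes called between the groups from 490 to 4473. Each of the 9 factors is therefore given with and without KO 1, within the 4 Y-positive libraries, and for the pair KO 1 and WT 1, where single libraries are compared and the difference has no error. Summed over 10 hepatocyte markers, KO held 42800 to 98000 CPM and WT 112000 to 160000 CPM. These markers were present in every library, as the tissue label requires. The largest part of the sum in each library was Alb, which is named after its values were seen. It was at 50500, 10400 and 17500 CPM in KO and 95600, 70000 and 57100 CPM in WT (edgeR adjusted p = 0.19). Of the 10 markers, 8 had negative and 2 positive log2 fold changes.

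Compared per kilobase of annotated exon, the 9 factors spanned a wide range of levels in WT liver. Hnf4a was the highest at 110.4 ± 1.61 CPM per kb and Cebpa followed at 69.4 ± 0.603 CPM per kb (SD, n = 3 each). Foxa3 was at 17.5, Prox1 at 11.6, Nr5a2 at 10.97, Cebpb at 9.58, Foxa2 at 6.31, Onecut1 at 4.64 and Foxa1 at 3.12 CPM per kb. Neighbours in this order did not overlap between WT libraries, apart from Prox1 and Nr5a2, Nr5a2 and Cebpb, and Foxa2 and Onecut1, whose libraries did. By the means, the order was the same in KO except that Cebpb stood at rank 4, above Nr5a2 and Prox1, and Prox1 at rank 6. This rank of Cebpb rested on KO 2 and KO 3. In KO 1 Cebpb was at 8.52 CPM per kb, below Nr5a2 at 14.9 and Prox1 at 11.6 CPM per kb. The 3 WT libraries lay close together for several factors, with a coefficient of variation of 0.869% for Cebpa, 1.46% for Hnf4a, 2.36% for Foxa3 and 3.16% for Foxa1. The same coefficients in KO were 19.9%, 10.6%, 16.3% and 44.8%. Onecut1 and Foxa2 went the other way, with 37.7% and 18% in WT against 7.82% and 4.43% in KO.

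**Figure D1:**
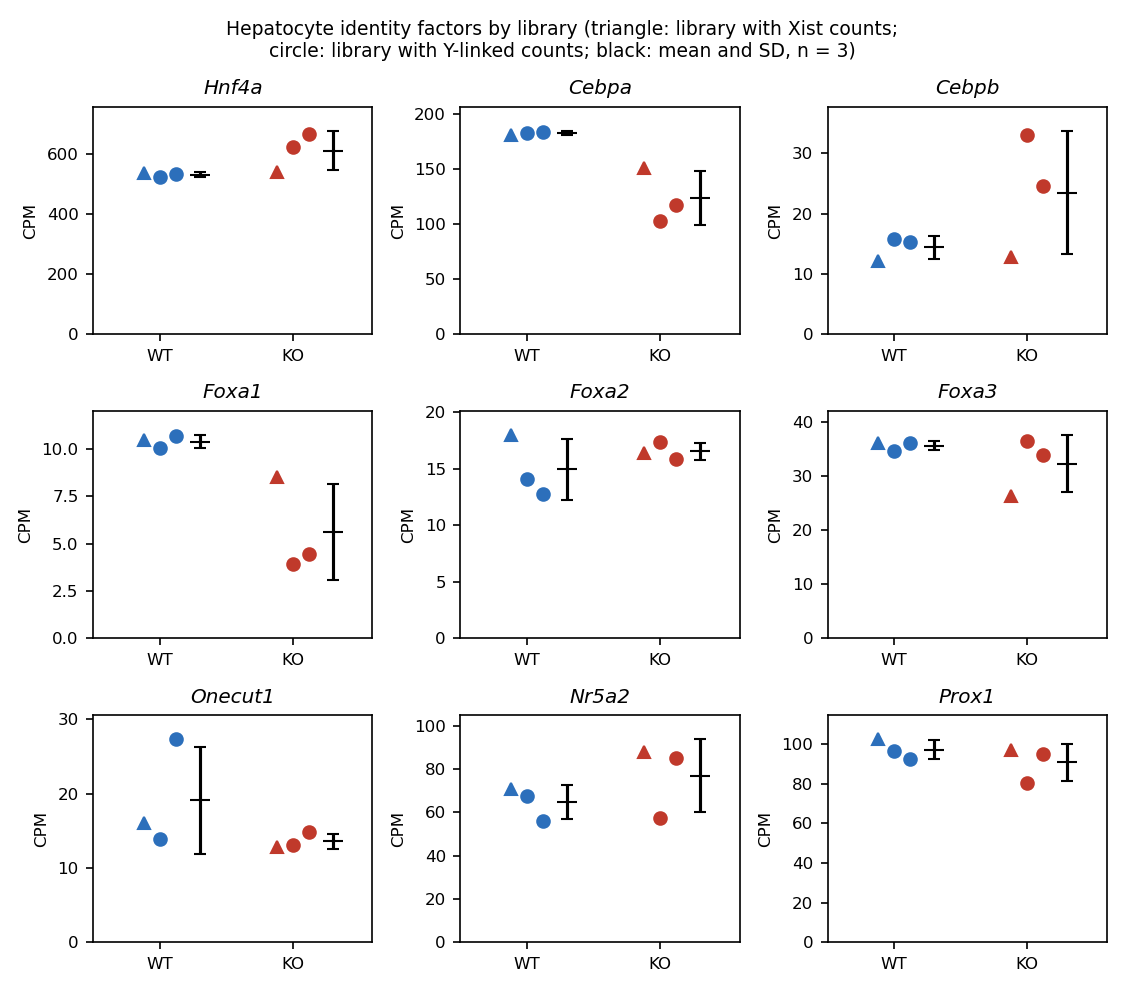
Level of each factor in CPM on axes that start at 0, with 1 symbol per library, triangles for KO 1 and WT 1 (Xist counts), circles for the other 4 libraries, and the mean and SD of 3 libraries in black. Cebpa and Foxa1 were lower in all 3 KO libraries, with KO 1 nearest to WT, and for Cebpb only KO 2 and KO 3 stood above WT.

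Between KO and WT, 0 of the 9 factors passed an adjusted p of 0.05 in edgeR's quasi-likelihood test over all genes, where 3.37% of the 14539 genes passed. At an unadjusted p under 0.05 there were 2, Cebpa and Foxa1, against 26.3% of all genes. DESeq2 called the same 2 genes, both lower (2 of 9, against 15.8% of all genes called, 7.01% as lower), and limma voom called 0 of 9 (2.97% of all genes). Groups did not overlap for 3 factors, Cebpa and Foxa1 (lower) and Hnf4a (higher), and for 32.4% of all genes. The median log2 fold change was -0.10 over the 9 factors and 0.01 over all genes tested. Without KO 1, and equally within the 4 Y-positive libraries, 3 factors were called: Cebpa and Foxa1 as lower and Cebpb as higher. Without KO 1, 30.2% of all genes were called, 16% as higher and 14.2% as lower, and in the Y-positive libraries 33.3%, 17.2% as higher and 16.1% as lower. The share of 3 in 9 is near that background.

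Fitted to all 6 libraries, the values furthest from 0 on the log2 scale were -0.88 for Foxa1, 0.70 for Cebpb and -0.56 for Cebpa. None of them passed the threshold. Onecut1, at -0.49, lay below Cebpa without WT 1 or WT 2 (-0.60 and -0.68 against -0.57 and -0.56). The same held without KO 2 or KO 3 (-0.459 and -0.556 against -0.438 and -0.524). As the plot of differences shows, Hnf4a, Foxa2, Foxa3, Nr5a2 and Prox1 had fitted differences within 0.25 on the log2 scale. The 95% intervals given below are for single genes and are not adjusted for the number of genes tested.

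**Figure D2:**
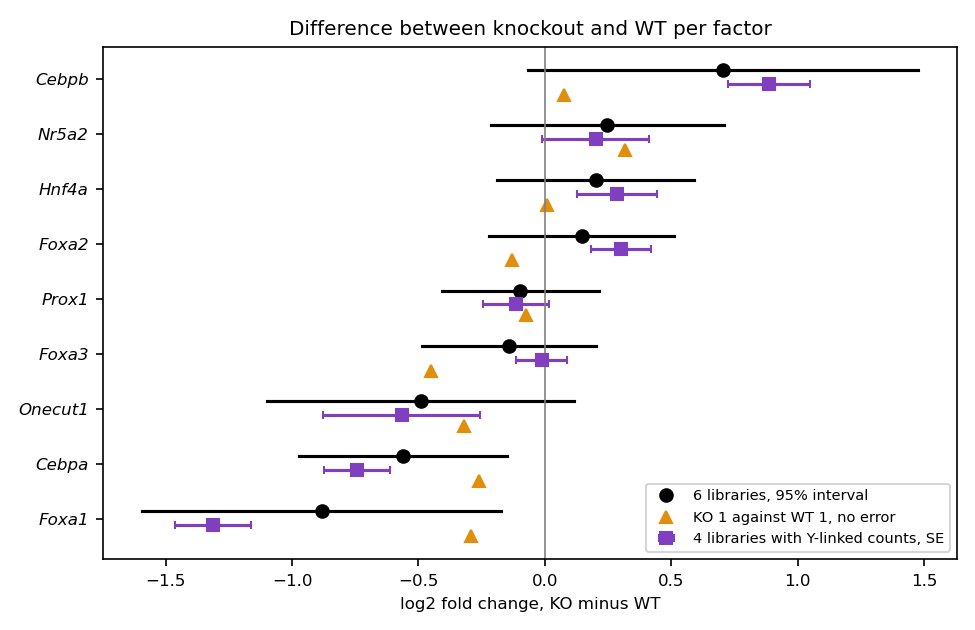
Log2 fold change of each factor, KO minus WT, from all 6 libraries (black, 95% interval), from the 4 Y-positive libraries (purple squares, SE) and for KO 1 against WT 1 (orange triangles, no error). For Foxa1 the values were -0.88, -1.31 and -0.29, and for Cebpb 0.70, 0.89 and 0.08.

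Hnf4a (ENSMUSG00000017950.16, GRCm38 chromosome 2, 163506808 to 163572910, plus strand) was at 542, 625 and 670 CPM in KO 1 to 3 and at 539, 524 and 536 CPM in WT 1 to 3. Every KO library was above every WT library, but KO 1 exceeded the highest WT library only slightly. The log2 fold change was 0.20 ± 0.164 (SE), with a 95% interval from -0.19 to 0.59 and an edgeR adjusted p of 0.47. The interval corresponds to between 0.878 and 1.5 times the WT level, so a fall of Hnf4a mRNA below 0.878 times lies outside it. In the 4 Y-positive libraries the log2 fold change was 0.28 (adjusted p = 0.218), without KO 1 it was 0.27 (adjusted p = 0.158), without KO 3 it was 0.13, and in the pair KO 1 and WT 1 it was 0.01. Hnf4a has an adult liver promoter and an upstream promoter used in other tissues, and the counts are totals over the gene that do not separate their transcripts. Its antisense gene Hnf4aos, which shares 0 exon bases with Hnf4a, was at 0.926, 1.13 and 2.50 CPM in KO and 2.19, 4.78 and 5 CPM in WT, and the small RNA gene Gm25881 within Hnf4a had 0 counts in every library.

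The stretches upstream of the annotated starts are shown for Cebpa, Cebpb and Foxa1, the 3 factors called in the Y-positive libraries, and for the downstream Hnf4a start, as the factor with the highest level. They come from RefSeq on GRCm38.p6, run 5′ to 3′ on the gene's strand, end at or just before the annotated start, and carry motif matches in capitals. Both strands were searched, the match standing in the printed sequence as is or as its reverse complement. The motifs were TGACG (the half-site of CREB, which mediates glucagon signals), TTGCNNAA (C/EBP), TGTTTAC (FOXA), CAAAGTCCA (HNF4), ATTGATT (ONECUT) and CAAGGTCA (NR5A).
Hnf4a, chr2:163546905-163547154, plus strand: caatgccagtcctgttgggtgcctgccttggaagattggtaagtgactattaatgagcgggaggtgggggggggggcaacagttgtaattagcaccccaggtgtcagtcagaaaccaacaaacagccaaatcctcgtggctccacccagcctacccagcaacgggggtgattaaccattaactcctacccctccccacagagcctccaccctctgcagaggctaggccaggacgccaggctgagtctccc
Cebpa, chr7:35119043-35119292, plus strand: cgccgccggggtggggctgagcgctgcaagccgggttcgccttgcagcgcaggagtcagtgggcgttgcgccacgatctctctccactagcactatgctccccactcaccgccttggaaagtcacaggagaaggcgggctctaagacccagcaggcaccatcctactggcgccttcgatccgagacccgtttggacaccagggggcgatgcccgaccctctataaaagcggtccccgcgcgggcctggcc
Cebpb, chr2:167688665-167688914, plus strand: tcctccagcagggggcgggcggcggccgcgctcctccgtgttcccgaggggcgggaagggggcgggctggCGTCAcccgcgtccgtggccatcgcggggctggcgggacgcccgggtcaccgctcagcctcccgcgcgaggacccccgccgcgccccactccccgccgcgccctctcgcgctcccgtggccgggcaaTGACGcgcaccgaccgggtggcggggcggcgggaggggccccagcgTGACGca
Foxa1, chr12:57546122-57546361, minus strand: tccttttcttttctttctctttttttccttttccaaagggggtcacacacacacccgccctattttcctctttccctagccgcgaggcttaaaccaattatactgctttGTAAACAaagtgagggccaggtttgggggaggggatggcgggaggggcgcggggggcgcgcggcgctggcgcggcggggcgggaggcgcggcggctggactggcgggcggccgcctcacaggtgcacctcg
The Cebpb stretch held 3 CREB half-sites, at 180, 53 and 7 bases before the start, and the Foxa1 stretch held 1 FOXA motif, 141 bases before its RefSeq start. The Hnf4a and Foxa1 stretches lie inside the genes, since longer transcripts start further upstream. In the printed Hnf4a and Cebpa stretches 0 of the 6 motifs matched. Among 32851 windows of 250 bases before RefSeq starts, 17.8% held TGACG and 3.17% TGTTTAC. TTGCNNAA was in 9.56%, ATTGATT in 2.61%, CAAGGTCA in 1.33% and CAAAGTCCA in 0.384% of them. The 9 factors had 14 such windows, of which 2 held TGACG, 2 ATTGATT, 1 TTGCNNAA and 1 TGTTTAC. The windows with ATTGATT were 1 of Foxa2 and that of the upstream Hnf4a start, where the match lay 60 bases before the start. A match is a run of letters and not a measured binding site.

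Cebpa (ENSMUSG00000034957.10, chromosome 7, 35119293 to 35121928, plus strand) encodes C/EBP alpha, which maintains metabolic gene expression in the quiescent hepatocyte. It was at 151, 103 and 117 CPM in KO 1 to 3 and at 181, 184 and 184 CPM in WT 1 to 3. All KO libraries were below all WT libraries, and KO 1 was the nearest to them. The log2 fold change was -0.56 ± 0.173 (SE), or 0.678 times the WT level with a 95% interval from 0.51 to 0.901 times, and it did not pass the threshold over all genes (edgeR adjusted p = 0.107, unadjusted p = 0.0145). Without KO 1 it was -0.74 (adjusted p = 0.0079), in the 4 Y-positive libraries -0.74 (adjusted p = 0.011), and in the pair KO 1 and WT 1 -0.26. An antisense gene, Gm45091, shares 51 exon bases with Cebpa and was at no more than 0.515 CPM in any library.

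Cebpb (ENSMUSG00000056501.3, chromosome 2, 167688915 to 167690418, plus strand) encodes C/EBP beta, which is induced by cAMP, glucagon and acute phase signals in liver. It was at 12.8, 33.0 and 24.6 CPM in KO 1 to 3 and at 12.2, 15.8 and 15.2 CPM in WT 1 to 3. KO 2 and KO 3 were above all WT libraries and KO 1 was within their range, so the groups overlapped. The log2 fold change was 0.70 ± 0.326 (SE), with a 95% interval from -0.07 to 1.48 and an edgeR adjusted p of 0.222. Without KO 1 it was 0.99 (adjusted p = 0.0107), among the Y-positive libraries 0.89 (adjusted p = 0.0125), and in the pair KO 1 and WT 1 only 0.08. Without KO 2 it was 0.38 (adjusted p = 0.511). The gene Tmem189 lies on the opposite strand and shares 312 exon bases with Cebpb. Its level was between 8.77 and 10.6 CPM in all 6 libraries, and the use of strand in counting is not given in the sources used here.

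Because the C/EBP proteins form dimers with each other, the ratio of Cebpb to Cebpa per kilobase of exon was computed for each library, as a description without a test. It was 0.118, 0.151 and 0.145 in WT 1 to 3 and 0.149, 0.56 and 0.367 in KO 1 to 3. KO 2 and KO 3 had ratios above every WT library, and KO 1 was within the WT range.

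**Figure D3:**
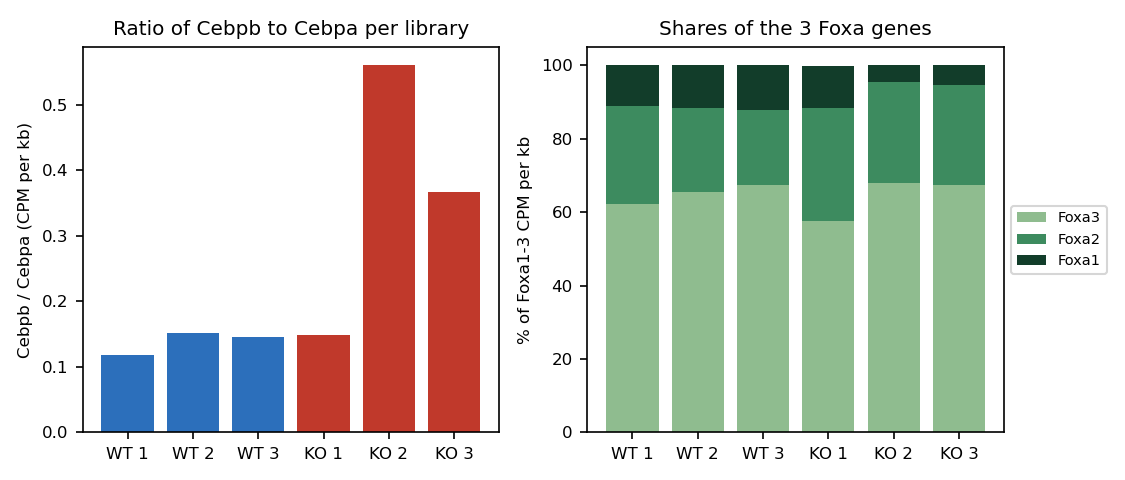
Left, the ratio of Cebpb to Cebpa in CPM per kb of exon by library, on an axis from 0, with WT in blue and KO in red. Right, the share of each Foxa gene in the summed CPM per kb of the 3 Foxa genes. KO 2 and KO 3 had the highest ratios, at 0.56 and 0.367, and the lowest Foxa1 shares, at 4.44% and 5.43%.

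The 3 FOXA factors are forkhead proteins known as pioneer factors, and FOXA1 and FOXA2 can substitute for each other in liver development. Foxa1 (ENSMUSG00000035451.7, chromosome 12, 57540628 to 57546916, minus strand) was at 8.53, 3.91 and 4.46 CPM in KO 1 to 3 and at 10.5, 10.0 and 10.7 CPM in WT 1 to 3, from 210 to 531 counts per library. All KO libraries were below all WT libraries, KO 2 and KO 3 far below and KO 1 close to them. The log2 fold change of -0.88 ± 0.30 (SE), 0.543 times with a 95% interval from 0.332 to 0.887 times, missed the threshold when all 6 libraries were used (edgeR adjusted p = 0.128, unadjusted p = 0.0218). Without KO 1 the value was -1.32 (adjusted p = 0.00262), within the Y-positive libraries -1.31 (adjusted p = 0.00331), and in the pair KO 1 and WT 1 -0.29.

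Whether the difference itself depended on the state of the library was tested as an interaction in edgeR over all genes, in which 2.90% of genes and 0 of the 9 factors passed. The Xist state holds 1 KO and 1 WT library, so the spread in this test comes from the 4 Y-positive libraries alone. KO 1 and WT 1 are assumed to vary like them. Stk11 was also higher in KO 1, at 22.1 CPM, than in KO 2 and KO 3, at 14.4 and 11.4 CPM. The state of KO 1 and its Stk11 level therefore cannot be told apart. Foxa1 had the smallest p of the 9, with an interaction of 1.01 on the log2 scale (adjusted p = 0.105). Without a filter on low counts its adjusted p was 0.0424, so this call depends on the filter. At an unadjusted p under 0.05 there were 3 of 9 factors, Foxa1, Cebpb and Foxa3, against 20.9% of all genes. The interactions of the 8 other factors had adjusted p-values from 0.195 (Cebpb, -0.82 on the log2 scale) to 0.946 (Prox1), and Foxa3 was at -0.44 (adjusted p = 0.231).

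Foxa2 (ENSMUSG00000037025.11, chromosome 2, 148042877 to 148046969, minus strand) was at 16.4, 17.3 and 15.9 CPM in KO and 18, 14.1 and 12.8 CPM in WT. The groups overlapped, since WT 1 was the highest library, and the log2 fold change was 0.15 ± 0.154 (SE, 95% interval -0.22 to 0.51, edgeR adjusted p = 0.577). It was 0.15 without KO 1, 0.30 in the Y-positive libraries (adjusted p = 0.104), 0.29 without WT 1, 0.04 without WT 3 and -0.13 in the pair KO 1 and WT 1, so its size and sign depended on single libraries. Foxa3 (ENSMUSG00000040891.6, chromosome 7, 19013284 to 19023538, minus strand) was at 26.4, 36.5 and 33.8 CPM in KO and 36.0, 34.6 and 36.1 CPM in WT, with KO 1 the only library clearly below the others. Its log2 fold change was -0.14 ± 0.145 (SE, 95% interval -0.49 to 0.20, edgeR adjusted p = 0.561). Without KO 1 it was -0.02, in the Y-positive libraries -0.01, without KO 2 -0.24 and in the pair KO 1 and WT 1 -0.45. Summed per kilobase, the 3 Foxa genes stood at 22.4, 26.4 and 24.7 CPM per kb in KO and 28.4, 26.0 and 26.3 CPM per kb in WT. The share of Foxa1 in that sum was between 11.1% and 12.2% in WT, 11.4% in KO 1, and 4.44% and 5.43% in KO 2 and KO 3, while Foxa3 made up between 57.7% and 67.9% in all libraries. For Foxa1 the libraries that stood apart were thus KO 2 and KO 3, and for Foxa3 it was KO 1.

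By the rule for genes of like pattern, the genes nearest to Foxa1 among 11972 others with a mean of at least 1 CPM were Lrp3, Dennd3 and Fat4. The root mean square difference of their centred log2 CPM from that of Foxa1 over the 6 libraries was 0.0279, 0.0604 and 0.0811. Lrp3 was at 15.3, 7.11 and 8.36 CPM in KO and between 19 and 19.4 CPM in WT (log2 fold change -0.91, edgeR adjusted p = 0.109). Its KO 1 library lay between WT and the other KO libraries, which follows from its choice by likeness to Foxa1 over the same 6 libraries.

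Onecut1 (ENSMUSG00000043013.10, chromosome 9, 74861921 to 74891781, plus strand) was at 12.8, 13.1 and 14.8 CPM in KO and 16.0, 13.9 and 27.3 CPM in WT. WT 3 stood above the 5 other libraries, which lay between 12.8 and 16.0 CPM. The log2 fold change was -0.49 ± 0.257 (SE, 95% interval -1.10 to 0.12, edgeR adjusted p = 0.271), and without WT 3 it was -0.14 (adjusted p = 0.676). It was -0.46 without KO 1, -0.57 in the Y-positive libraries (adjusted p = 0.213) and -0.32 in the pair KO 1 and WT 1. Its counts were not whole numbers in 6 of 6 libraries, unlike those of the other factors, as RSEM gives where reads match more than 1 gene. The non-coding gene Gm20649 overlaps it on the same strand, shares 2171 exon bases with it and was at 1.32, 1.13 and 1.25 CPM in KO and between 2.12 and 4.85 CPM in WT, highest in WT 3. Added together, the 2 genes were at 14.1, 14.2 and 16.0 CPM in KO and 18.2, 16.0 and 32.1 CPM in WT, so WT 3 was again the highest.

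Nr5a2 (ENSMUSG00000026398.14, chromosome 1, 136842571 to 136960448, minus strand) was at 88.0, 57.5 and 85.0 CPM in KO and 70.7, 67.6 and 55.9 CPM in WT. The groups overlapped through KO 2, and the log2 fold change was 0.25 ± 0.195 (SE, 95% interval -0.21 to 0.71, edgeR adjusted p = 0.452). It was 0.13 without KO 1, 0.42 without KO 2, 0.15 without WT 3, 0.20 in the Y-positive libraries and 0.32 in the pair KO 1 and WT 1. Prox1 (ENSMUSG00000010175.13, chromosome 1, 190118035 to 190170714, minus strand) was at 97.3, 80.2 and 95.1 CPM in KO and 102.4, 96.4 and 92.7 CPM in WT, with overlap. Its log2 fold change of -0.10 ± 0.131 (SE, adjusted p = 0.67) had the narrowest interval of the 9, from 0.754 to 1.16 times the WT level. On the log2 scale it was -0.16 without KO 1, -0.01 without KO 2, -0.06 without WT 1, -0.11 in the Y-positive libraries and -0.07 in the pair KO 1 and WT 1. The antisense gene Prox1os, which shares 133 exon bases with it, was at 1.57 to 4.65 CPM, and a further antisense gene, Gm28172, was at no more than 0.127 CPM. PROX1 is also the defining factor of lymphatic endothelium. The 4 lymphatic endothelial markers Pdpn, Flt4, Ccl21a and Mmrn1 summed to 8.11 to 12.6 CPM in KO and 16.8 to 24.6 CPM in WT, and their part in the Prox1 level was not tested.

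Of 9 paralogs of these factors, 7 were tested and 0 passed the threshold, against 3.37% of all genes. Ddit3 alone had an unadjusted p under 0.05 in edgeR, against 26.3% of all genes. Ddit3, a stress-induced C/EBP family member also called CHOP, was at 2.90, 14.9 and 6.26 CPM in KO and 2.7, 2.7 and 3.16 CPM in WT (log2 fold change 1.49, adjusted p = 0.147). In the Y-positive libraries it was called, at 1.85 (adjusted p = 0.0236), the only paralog of the 7 that was, where 33.3% of all genes were called. Onecut2 was at 68.8 to 88.6 CPM in KO and 85.0 to 102 CPM in WT, and Cebpg at 52.4 to 83.6 and 59.1 to 64.9 CPM. Cebpe, Cebpd, Prox2 and Hnf4g were at no more than 3.67 CPM in any library, and Onecut3 and Nr5a1 had 0 counts in every library.

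Among 32 other transcription factors of liver, 3 rose and 2 fell past the threshold, against 2.15% of all genes as higher and 1.22% as lower. Their median log2 fold change was -0.48, with 21 negative and 11 positive values. The list was chosen with earlier results of these data known, so its counts and median are a description and no test. Atf5, a stress-regulated leucine zipper factor, rose from 167 ± 33.8 to 641 ± 55.1 CPM (SD, n = 3 each; log2 fold change 1.94 ± 0.203 SE; edgeR adjusted p = 0.0109). Esrra, a nuclear receptor of mitochondrial genes, rose by 1.53 ± 0.302 and Nfil3, a repressor in the clock and in fasting, by 0.98 ± 0.179 on the log2 scale (adjusted p = 0.048 and 0.0417). Xbp1, the secretory pathway factor, fell from 190, 151 and 188 CPM in WT to 75.0, 92.6 and 82.9 CPM in KO (log2 fold change -1.08 ± 0.159, adjusted p = 0.0261). Nr0b2 (SHP), the repressor of HNF4A and NR5A2 activity in bile acid feedback, fell from 31.1, 27.8 and 28.7 CPM to 18.9, 14.8 and 17.5 CPM (log2 fold change -0.77 ± 0.131, adjusted p = 0.0347). For these 5 genes the groups did not overlap. Among all 32 factors the groups did not overlap for 6 as higher and 11 as lower, against 16.9% and 15.5% of all genes.

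Without KO 1 there were 20 calls among the 32 factors, 6 higher and 14 lower, and in the Y-positive libraries 21, 7 higher and 14 lower, against 30.2% and 33.3% of all genes. The count was 1 without KO 2 and 0 without KO 3, WT 2 or WT 3. Over all genes the calls in these fits were 86 of 14885, 35 of 15004, 6 of 14980 and 20 of 15027, in that order.

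Genes known as targets of the factors were taken from 5 lists that share members, with 73 entries for 56 distinct genes, of which 55 were tested. Of these, 4 rose and 3 fell past the threshold, against 2.15% and 1.22% of all genes, and the median log2 fold change was -0.36. These lists were also chosen with earlier results of these data known, so the counts are a description and no test. Without KO 1 there were 36 calls, 11 higher and 25 lower, where 30.2% of all genes were called. Without WT 2 or WT 3 there were 0, where 6 of 14980 and 20 of 15027 genes were called. The Y-positive libraries gave 35 calls, 12 higher and 23 lower, where 33.3% of all genes were called.

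Of 26 HNF4A targets, 20 had negative values, 2 fell and 1 rose past the threshold, and the median was -0.47 over 6 libraries and -0.64 in the Y-positive ones. F11, coagulation factor XI, fell from 62.6, 83.8 and 78.5 CPM in WT to 33.5, 30.1 and 30.4 CPM in KO (log2 fold change -1.26 ± 0.145, edgeR adjusted p = 0.0147). Cyp27a1, a sterol hydroxylase of bile acid synthesis, fell by 1.21 ± 0.168 on the log2 scale (adjusted p = 0.0226). Tat, tyrosine aminotransferase, which is also listed for C/EBP and FOXA, rose by 1.86 ± 0.314 (adjusted p = 0.0344). The groups did not overlap for 12 of the 26 genes as lower and 3 as higher, against 15.5% and 16.9% of all genes. Over the same 6 libraries Hnf4a itself was at 0.20 (95% interval -0.19 to 0.59, edgeR adjusted p = 0.47). A link between its level and these genes was not tested.

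Of 17 C/EBP targets, 1 passed the threshold, Tat, and the median was 0.09, with 9 positive and 8 negative values. Ugt1a1, which conjugates bilirubin, was at 301, 107 and 125 CPM in KO and 846, 590 and 504 CPM in WT (log2 fold change -1.86, edgeR adjusted p = 0.0662). Of 9 FOXA targets tested, Tat alone was called, and the median was 0.99. Ttr, transthyretin, was at 3260, 1660 and 2090 CPM in KO and between 5060 and 5350 CPM in WT (log2 fold change -1.15, adjusted p = 0.0775). Of 8 ONECUT1 targets 0 were called, 6 had negative values and the median was -0.93. The 2 with the smallest p were Slc2a2, the hepatocyte glucose transporter, at -1.10 (adjusted p = 0.064), and Pfkfb1, a regulator of glycolysis, at -0.44 (adjusted p = 0.0747). At an unadjusted p under 0.05 there were 5 of the 8, against 26.3% of all genes.

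Of 12 NR5A2 targets, 3 rose and 1 fell, with a median of -0.35. Gls2, liver glutaminase, rose by 2.12 ± 0.236, and the sterol transporters Abcg8 and Abcg5, which work as a pair, by 1.93 ± 0.318 and 2.30 ± 0.386 on the log2 scale (edgeR adjusted p = 0.0132, 0.0329 and 0.0334). Nr0b2 was the gene that fell. Past the threshold in all 6 libraries, HNF4A and NR5A2 targets thus moved in both directions, the C/EBP and FOXA lists held only Tat, and the ONECUT1 list held no gene. In the Y-positive libraries the calls were 2 higher and 12 lower of 26 HNF4A targets, 6 and 5 of 17 C/EBP targets, 4 and 3 of 9 FOXA targets, 0 and 6 of 8 ONECUT1 targets, and 4 and 5 of 12 NR5A2 targets, against 17.2% of all genes as higher and 16.1% as lower.

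**Figure D4:**
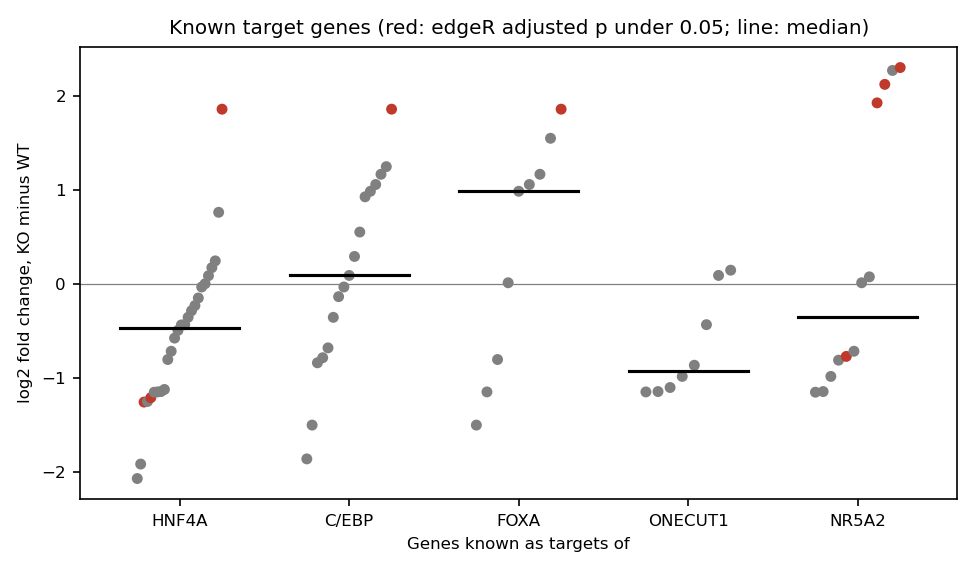
Log2 fold change, KO minus WT, of known target genes in 5 lists, 1 point per gene tested, with the median of each list as a line and genes past an edgeR adjusted p of 0.05 in red. The medians were -0.47 for HNF4A, 0.09 for C/EBP, 0.99 for FOXA, -0.93 for ONECUT1 and -0.35 for NR5A2 targets, and some genes stand in more than 1 list.

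Plasma proteins and other products that define the hepatocyte were also compared. Of 10 hepatocyte markers 0 passed the threshold in edgeR and 6 had an unadjusted p under 0.05, against 3.37% and 26.3% of all genes. Without overlap, 8 were lower and 2 higher in KO, against 15.5% and 16.9% of all genes. In the Y-positive libraries 6 were called as lower and 1 as higher, against 16.1% and 17.2% of all genes. Apoa1 was at 2690, 1140 and 888 CPM in KO and 5990 to 7500 CPM in WT (log2 fold change -2.07, adjusted p = 0.0568), and Hpx, hemopexin, at 4150, 9650 and 7520 CPM in KO and 2680 to 2980 CPM in WT (log2 fold change 1.34, adjusted p = 0.0756). Of 7 genes of fetal liver 5 were tested. Of these, 0 passed and 1 had an unadjusted p under 0.05 in edgeR, against 3.37% and 26.3% of all genes. Igf2 was at -0.88 and Gpc3 at -1.90 on the log2 scale (edgeR adjusted p = 0.169 and 0.196), both at no more than 1.68 CPM in any library.

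Other cell types that express some of the 9 factors were followed by their markers. The bile duct markers, whose cells also express Foxa1, Foxa2 and Onecut1, summed to 87.0, 31.4 and 40.6 CPM in KO and 87.0, 53.4 and 63.5 CPM in WT. Of the 8 tested 0 were called in edgeR and 1 had an unadjusted p under 0.05, against 3.37% and 26.3% of all genes. Most of this sum was Spp1, at 67.7, 20.5 and 26.9 CPM in KO and 65.5, 34.9 and 41.4 CPM in WT, while Sox9 was highest in KO 3 at 3.63 CPM, and both genes are named after their values were seen. KO 2 and KO 3 were the lowest libraries in this sum, and also in the hepatocyte, endothelial, lymphatic endothelial, Kupffer, stellate and lymphocyte sums. The part of these cell types in the Foxa1 result was not tested. The 7 endothelial markers summed to 99.3 to 165 CPM in KO and 190 to 257 CPM in WT. Of the 7, 6 were lower without overlap, against 15.5% of all genes. In edgeR 0 were called and 6 had an unadjusted p under 0.05, against 3.37% and 26.3% of all genes. In the Y-positive libraries 6 of the 7 were called as lower, against 16.1% of all genes. Called as lower there were also 4 of 8 stellate, 3 of 7 Kupffer, 2 of 5 lymphocyte, 2 of 8 bile duct and 1 of 3 lymphatic endothelial markers. As higher, 1 of 7 Kupffer and 1 of 2 neutrophil markers were called, against 17.2% of all genes. Kupffer cell markers (7 genes) summed to 102 to 227 CPM in KO and 141 to 194 CPM in WT, stellate cell markers (8 genes) to 109 to 234 and 183 to 382 CPM, and lymphocyte markers (5 genes) to 0.531 to 2.13 and 1.91 to 2.88 CPM. The 5 neutrophil markers, cells in which Cebpb is also active, summed to 0.612 to 0.789 CPM in KO and 0.237 to 0.347 CPM in WT, with Ly6g at 0 counts in every library, and their part in the Cebpb level was not tested. Of 6 markers of acinar pancreas, a tissue that expresses Nr5a2, Foxa2 and Onecut1, 5 had 0 counts in every library, and the sum was at most 0.591 CPM.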

How the data were processed

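Livers of 3 KO and 3 WT mice were sequenced as poly(A) RNA in paired runs, per the labels. The values the authors deposited are expected counts per gene, as RSEM estimates them, in which 4.93% to 5.47% of values per library were not whole. The submitters' processing notes name bcl2fastq 2.17, cutadapt 1.18, STAR 2.7.0f, RSEM 1.3.1 and the build mm9, whereas all 55450 versioned gene identifiers are those of GENCODE M21 on GRCm38, from which positions and exon lengths were taken. The use of strand is not given in the sources used here.

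Groups and replicate numbers came from the sample titles. Expected counts were rounded, genes were kept by filterByExpr, libraries were scaled by TMM, and KO was compared with WT by edgeR 4.0.16 (quasi-likelihood, group as the only term, R 4.3.3) with Benjamini-Hochberg adjustment over 14539 genes and a threshold of 0.05. The SE is the log2 fold change divided by the square root of F, and 95% intervals use the test's degrees of freedom. Single-library log2 ratios use an offset of 0.1 CPM, and log2 CPM values a prior count of 2. Alternatives were DESeq2 1.42.0, limma 3.58.1 (voom), other scalings, no filter, a replicate block, library state as a term and leaving out libraries. The code was tested on simulated counts.

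The members and lists were chosen with earlier results of these data known. Named are Stk11, all members, paralogs and overlapping genes, up to 6 called genes per list (the 2 of smallest p where fewer than 2 passed), and the 3 genes most like the member of largest change, as no member passed. Mice are separate animals per the labels' protocols. Replicate numbers were not used as pairs. Some items are not reported here.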

Additional observations from a re-analysis of the deposited data

Results flagged for a closer look

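For 8 named genes that are not among the 9 factors, the difference between KO and WT differed between the pair KO 1 and WT 1 and the 4 Y-positive libraries, by an edgeR interaction test adjusted over all genes. The pair is 1 library against 1, so each value rests on single libraries. The spread in the test comes from the other 4 libraries, like which KO 1 and WT 1 are assumed to vary. The 8 genes were picked for passing this test, so their passing is no result about the lists. The share of all genes that passed is given with the interaction of the 9 factors above. As stated there, the state of KO 1 and its Stk11 level cannot be told apart. The interaction on the log2 scale, positive where KO minus WT was higher in the pair, was 1.55 for Tbx3, 1.72 for Creb3l3, 5.19 for Cyp8b1 and 3.93 for Dio1 (adjusted p = 0.0438, 0.0293, 0.00508 and 0.0169). It was -6.88 for Cux2, -1.80 for Esr1, -2.80 for Hamp and -1.86 for Abcg5 (adjusted p = 0.0131, 0.0181, 0.0279 and 0.0358). Cux2 was at 0.116 and 0.428 CPM in WT 2 and WT 3 but at 10.9 CPM in WT 1 and at 8.11, 18.7 and 28.2 CPM in KO. Cyp8b1 was at 406 CPM in KO 1 and 140 CPM in WT 1, against 42.2 and 30.9 CPM in KO 2 and KO 3 and 466 and 459 CPM in WT 2 and WT 3.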

How the results depend on the processing

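The direction of all 9 factors was kept in every alternative fit, while in the single pair KO 1 and WT 1 Foxa2 was at -0.13. The number of factors called was 0 in the fit to 6 libraries, 2 by DESeq2 (Cebpa and Foxa1), 3 with only the Y-positive libraries, and between 0 and 3 when 1 library was left out. For all genes, 490 calls became 771 without the filter, 2290 by DESeq2, 105 with the replicate block, 1504 with library state as a term, 4847 in the Y-positive libraries, and 6 to 4473 when 1 library was left out. Scaling by library size alone made 74.4% of the calls higher in KO in place of 63.9%. For the 32 other factors, 5 calls became 14 by DESeq2, 1 with the block, 9 with library state, 21 in the Y-positive libraries, and 0 to 20 with 1 library left out. For the target genes, 7 calls became 11 without the filter, 25 by DESeq2, 0 with the block, 16 with library state, 35 in the Y-positive libraries, and 0 to 36 with 1 library left out. Factors with a called interaction were 0, and 1 without the filter (Foxa1). The cause of these changes was not tested. With the replicate block 0 factors were called. The deviations of same-numbered libraries from their group means correlated at 0.178, 0.044 and 0.068, and KO 2 and KO 3 correlated best with a WT library of another number, so the numbers were not read as pairs. With 3 libraries per group, small changes in these factors were not detectable beyond the intervals given.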
